A study of Homo sapiens with 36 samples.

Results

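The 68 genes described here encode the subunits of the receptors for glutamate, GABA, glycine and, through nicotinic receptors, acetylcholine. They were taken by symbol, not by expression value, from 62710 genes measured in human H9 cells during neuron induction. The set was chosen with earlier results of these data known. They comprise 4 AMPA, 7 NMDA, 5 kainate and 2 delta receptor genes, 8 metabotropic glutamate receptor genes, 19 GABA-A and 2 GABA-B receptor genes, 5 glycine receptor genes and 16 nicotinic acetylcholine receptor genes. Every symbol was carried by 1 gene identifier.

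H9 is an established human embryonic stem cell line. Cells of 3 RAI1 genotypes, WT, HET (RAI1+/−) and KO (RAI1−/−), were turned into neurons with doxycycline-dependent NGN2, a proneural transcription factor, and collected at days 0, 3 and 7, with 4 libraries in each of the 9 groups. All 9 groups share the H9 background, and the labels give NGN2 induction as the treatment and iNeuron as the cell type for every library, day 0 included; day 0 is called the stem cell stage here, when pluripotency genes were high. RAI1 encodes a chromatin regulator. The number of edited clones, the position of the edits and the integration of the NGN2 cassette are not given in the sources used here. The labels call the libraries biological replicates but do not say whether they came from separate differentiations, so the p-values measure the spread between these libraries, which may be partly technical.

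Most of these receptors are assemblies of several subunits, and which subunits a neuron makes sets what its receptors respond to and how they conduct. AMPA and kainate receptors carry fast glutamate responses, NMDA receptors need the GluN1 subunit encoded by GRIN1 plus a GRIN2 or GRIN3 subunit, and metabotropic receptors signal through G proteins. GABA-A and glycine receptors are chloride channels, GABA-B receptors require both GABBR1 and GABBR2, and nicotinic receptors are cation channels whose subunits differ between muscle (CHRNA1, CHRNB1, CHRND with CHRNG in the fetus or CHRNE in the adult) and neurons (most other members).

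The deposited totals ran from 23.9 to 56.7 M counts per library. RAI1 itself was counted in every library: TMM-normalized CPM, which divides counts by library size, ran from 22.2 to 40.2 in WT, 28 to 47.2 in HET and 23.6 to 48.8 in KO at day 0, and from 37.5 to 73.8, 50.5 to 85.7 and 63.9 to 95.7 at day 7. On no day was mean RAI1 CPM lower in KO or HET than in WT, so its counts cannot serve as a check of the genotype labels. Summed CPM of 8 pluripotency markers was 2040 to 4580 over the day 0 libraries and at most 314 at day 7, while the 12 pan-neuronal markers summed to 262 to 538 CPM in WT at day 0 and 7170 to 14400 at day 7. A pair of day 7 libraries stood apart. HET replicate 1 had the largest share of 5 small structural RNAs in the series (27.5% of counts, against 2.84% to 13.4% in the other HET libraries). The day 7 shares were 14.5% to 25.6% in WT and 9.9% to 15.8% in KO. Most HET and KO libraries thus held a lower share than WT, and HET replicate 1 did not. WT replicate 1 was the lowest WT library for several subunits. Some day 7 counts that rest on HET or WT replicate 1 are given without it.

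In unedited cells, the subunits changed about as often as genes in general when neurons formed. Between day 0 and day 3, 24 receptor genes rose and 15 fell among 56 tested (69.6%), against 60% of all 22268 genes tested (31.2% higher and 28.7% lower; edgeR's quasi-likelihood test, adjusted p under 0.05 with Benjamini-Hochberg adjustment). In limma on the deposited TPM the split was 14 higher and 18 lower. Between day 3 and day 7, 26 rose and 6 fell (57.1%), against 46.2% of all genes (23.3% higher and 22.9% lower); on TPM 10 rose and 5 fell. The number of receptor genes with a group mean of at least 1 CPM was 27 at day 0, 31 at day 3 and 40 at day 7 in WT, and 17 of the 68 stayed under 1 CPM in every one of the 9 groups. GABRR3, a rho subunit of GABA-A receptors, and GRM6, the receptor of retinal bipolar cells, never exceeded 3 counts in any library.

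The largest day 3 rises in WT were in nicotinic, GABA-B and metabotropic glutamate receptor genes. CHRNG, the fetal muscle gamma subunit, rose from 0.157 ± 0.054 to 24.1 ± 3.79 CPM (SD, n = 4), a log2 difference of 7.20 (SE 0.35, adjusted p = 1.28e-09). GABBR2, the GABA-B subunit that couples to G proteins, rose from 1.03 ± 0.218 to 78.4 ± 9.4 CPM and fell again to 6.3 CPM at day 7 (log2 difference -3.64 from day 3, adjusted p = 2.15e-07). Its partner GABBR1, which binds GABA, went the other way, from 83.8 to 26.8 and then 171 CPM. GRM4, a presynaptic group III metabotropic receptor, rose from 7.63 ± 1.58 to 242 ± 43 CPM and stood at 147 ± 22.7 CPM at day 7. CHRNA1 (muscle alpha) and CHRND (muscle delta) rose by 5.42 and 4.91 on the log2 scale by day 3. CHRND then fell by 3.44 and CHRNG by 2.17 by day 7. Subunits present in stem cells fell by day 3: GRIN2B, an NMDA subunit of the developing brain, by 5.86, GRIN2A by 4.34, GRM3 by 4.78 and GRIA4, an AMPA subunit, by 2.97. From day 3 to day 7 the rises were led by ionotropic glutamate receptor genes, with GRIA2, the AMPA subunit that limits calcium entry, going from 1.34 to 44.1 CPM (5.07, SE 0.54, adjusted p = 3.23e-06), GRIN2D, an NMDA subunit of early neurons, from 20.7 to 228 CPM (3.46, SE 0.20, adjusted p = 1.28e-08), and GRIK3, a kainate subunit, from 2.41 to 35.7 CPM (3.89).

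Levels can be compared between genes only per length, and the deposited TPM was used for this within each group, as a description. In WT at day 0 GABBR1 stood at 30.7 ± 2.38 TPM (SD, n = 4), above CHRNA5 at 13.2 ± 2.53 and GRIK5 at 10.1 ± 1.23. In WT at day 3 GRM4 stood at 35.3 ± 3.88 TPM, above GABBR2 at 7.76 ± 2.75 and GRM2 at 6.96 ± 3.22, which were within their spread. In WT at day 7 GRM4 (17.1 ± 2.04 TPM), GABBR1 (16 ± 6.07) and GRIN2D (12.8 ± 3.35) were within the spread of each other. In KO at day 7 GABBR1 stood at 34.2 ± 8.15 TPM and GRIK1 at 33 ± 16.3, again within their spread, with GRM2 at 14 ± 3.11 and GRIA4 at 13.9 ± 2.88 next.

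**Figure D1:**
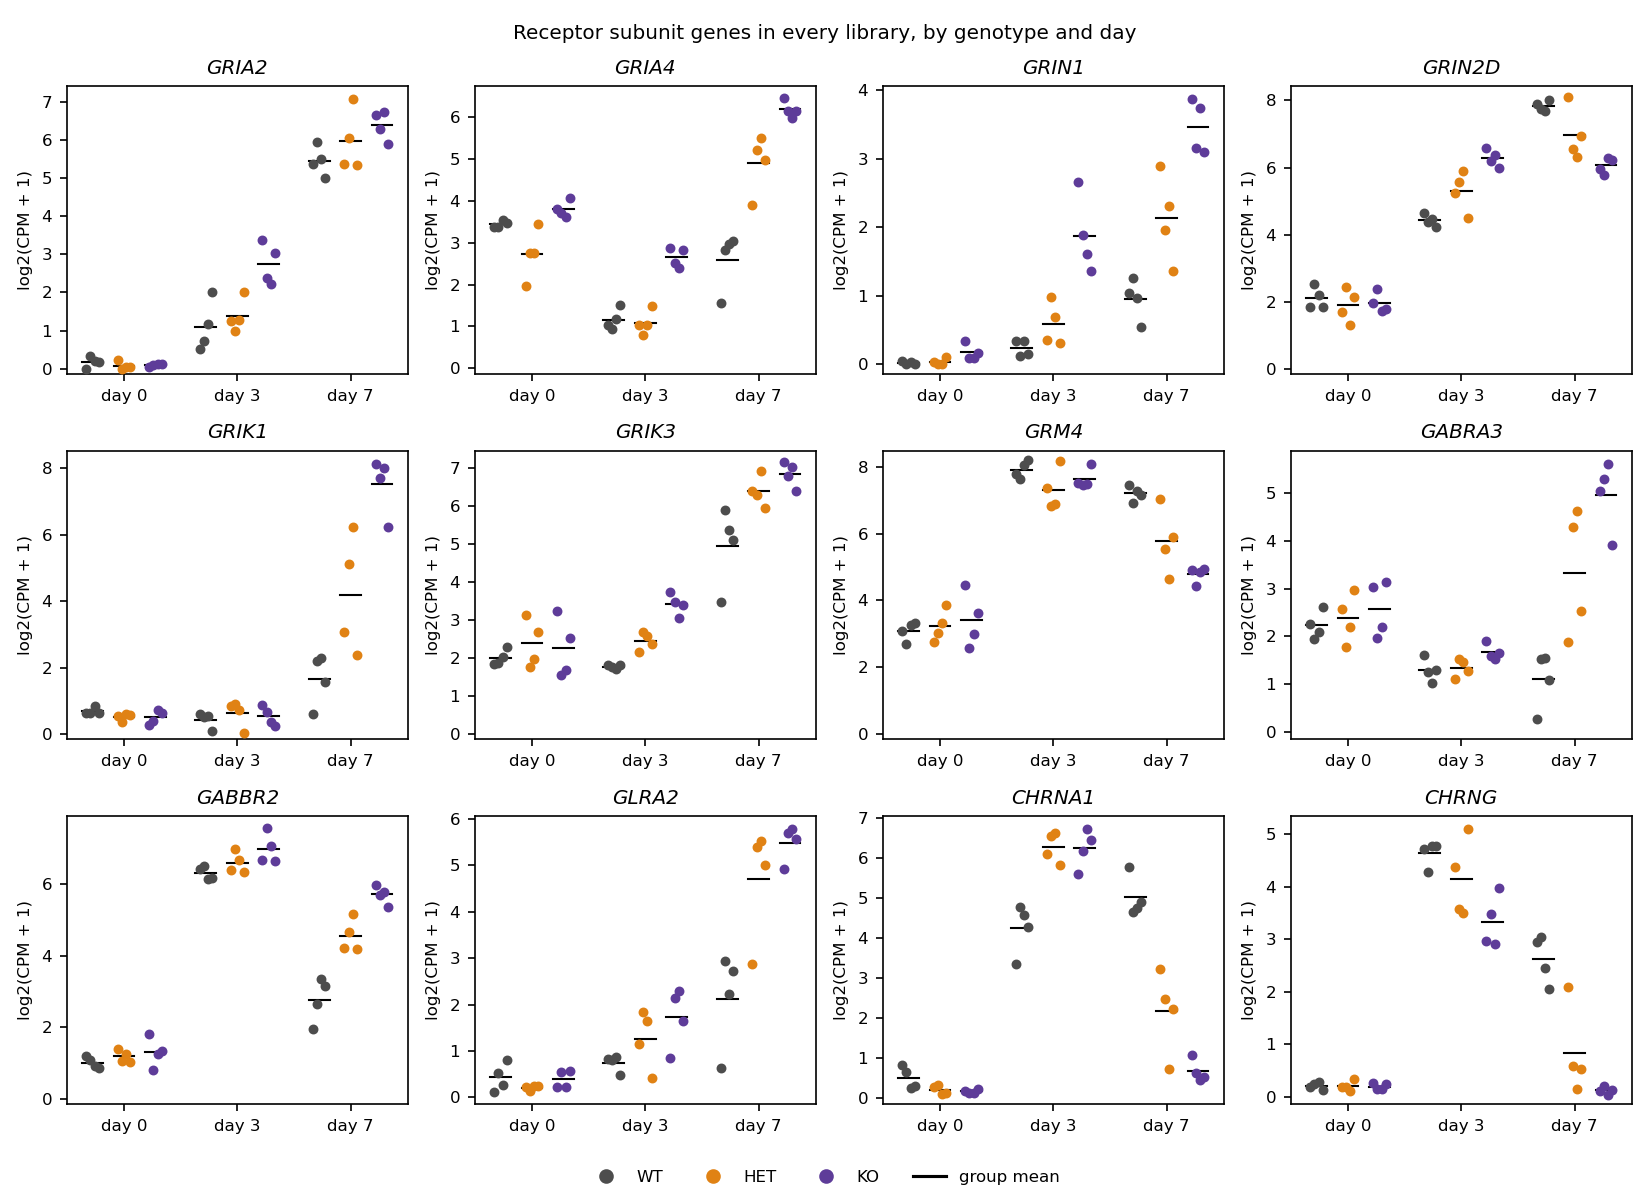
Each panel plots 1 receptor gene as log2(CPM + 1) per library (points) with the group mean (line), by day on the horizontal axis and by genotype in colour, 4 libraries per group. GRIK1, GRIA4, GABRA3 and GABBR2 are highest in KO at day 7, while GRIN2D and CHRNA1 are higher in KO than in WT at day 3 and lower at day 7.

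Upstream sequence is shown for the pair of genes that were called higher in KO at day 3 and lower at day 7, CHRNA1 and GRIN2D, and for GRIA4, which was higher on both days. The sequences are the 250 bases before a RefSeq transcript start in GRCh38.p14, read 5′ to 3′ on the gene's strand, and none overlaps an exon of GENCODE 29. Capitals mark CANNTG, the E-box class that proneural factors of the NGN2 kind are known to bind. The motif reads the same on both strands.
CHRNA1 (chr2:174764473-174764722, minus strand): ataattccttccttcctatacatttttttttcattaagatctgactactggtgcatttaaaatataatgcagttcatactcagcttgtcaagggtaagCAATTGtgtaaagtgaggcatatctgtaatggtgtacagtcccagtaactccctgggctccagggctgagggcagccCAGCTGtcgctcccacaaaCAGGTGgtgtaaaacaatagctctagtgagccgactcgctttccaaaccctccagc
GRIN2D (chr19:48393418-48393667, plus strand): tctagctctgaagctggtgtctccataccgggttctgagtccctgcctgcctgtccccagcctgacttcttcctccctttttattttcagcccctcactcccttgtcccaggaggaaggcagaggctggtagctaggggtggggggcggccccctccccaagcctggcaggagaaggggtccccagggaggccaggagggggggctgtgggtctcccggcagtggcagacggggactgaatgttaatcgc
GRIA4 (chr11:105609744-105609993, plus strand): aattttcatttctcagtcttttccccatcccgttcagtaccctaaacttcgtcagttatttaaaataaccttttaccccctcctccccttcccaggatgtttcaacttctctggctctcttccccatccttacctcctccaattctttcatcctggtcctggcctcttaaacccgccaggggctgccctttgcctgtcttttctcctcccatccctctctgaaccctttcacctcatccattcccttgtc
The CHRNA1 window held 3 matches and the GRIN2D and GRIA4 windows shown held 0. Of the 3 GRIA4 windows in RefSeq, 1 that is not shown held 2 matches. RefSeq promoter windows of 300 bases were found for 48 of the 68 genes (68 windows, since some genes have several starts), and 70.6% of these held CANNTG, against 68.7% of all 35116 windows. For CAGATG on either strand the shares were 11.8% and 14.7%. The starts used in these cells were not measured, and a match is not evidence of binding.

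At day 0, before neurons formed, few subunits differed between genotypes. KO was higher than WT for 4 of 50 receptor genes tested (8%), and none was lower, against 2.08% of all 20437 genes (1.66% higher). GRIN2B read 5.39, 9.26, 6.15 and 6.79 CPM in the WT libraries and 18.9, 20.7, 18.3 and 19.5 in KO (log2 difference 1.51, SE 0.15, adjusted p = 8.06e-05). The HET libraries lay between, at 10.2, 12.1, 13.5 and 12.4 CPM (0.83 above WT, SE 0.15, adjusted p = 0.0136), and the 3 groups did not overlap on this scale. On the TPM scale WT and HET overlapped (0.33 to 0.6 and 0.53 to 1.04 TPM) and so did HET and KO (0.76 to 1.23 TPM). Both GRIN2B calls were lost in limma on log2(TPM + 1) (adjusted p = 0.118 in KO and 0.565 in HET) and in the edgeR fit of all 36 libraries (adjusted p = 0.237 and 1.0). GABRB2 (1.95), GRM3 (1.95) and CHRNA7, the alpha7 subunit of neurons (0.48), were the other KO calls. The GABRB2 and GRM3 calls were each lost in 6 of 8 analyses without 1 library and the CHRNA7 call in 3 (without WT replicate 2 or 4 or KO replicate 3), and the count of 4 was 2 without WT replicate 1, 3 or 4 or KO replicate 4, and 1 without WT replicate 2 or KO replicate 3. With the replicate number as a block, 6 receptor genes were called. HET differed from WT at 2 of 50 genes, both higher, against 1.63% of all genes (1.22% higher): GRIN2B and GRIA3, an X-linked AMPA subunit. The GRIA3 call in HET (1.61, edgeR adjusted p = 0.0441) was lost in 6 of 8 analyses without 1 library, with an adjusted p of up to 0.147. Without WT replicate 3 or 4 or HET replicate 3 the HET count was 0, and without WT replicate 1 it was 1. KO and HET were compared with the same WT libraries at each day, so their differences from WT are given side by side and their likeness is not a result.

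By day 3 nearly all receptor genes called in KO cells were higher than in WT. Of 50 tested, 18 were higher and 1 was lower (38%), against 21.6% of all 21563 genes (12.6% higher and 8.93% lower), and the median log2 difference of the 50 was 0.65, against -0.05 over all genes. The higher genes came from 8 of the 9 families, with both GABA-B genes, 2 of 3 AMPA, 3 of 7 NMDA, 3 of 5 kainate, 2 of 8 GABA-A and 4 of 13 nicotinic genes. With the replicate number as a block, which the pairing of the libraries allows here, 28 were called. In limma on log2(TPM + 1) 6 were called in KO, all higher (GRIA4, GRIN2D, GRIK5, GRM2, CHRNA1 and CHRNA4), and 8 on log2(TPM + 0.1); the median of all genes was 0.20 and 0.38 on these scales. HET was higher at 4 of 50 genes (8%) and lower at 0, against 3.28% of all genes (2.52% higher), and with the block 9 were called; limma called 0 on log2(TPM + 1) and 1, CHRNA1, on log2(TPM + 0.1). Without WT replicate 1, 2 or 3 or HET replicate 2 or 3 the HET count was 2, and without HET replicate 4 it was 8.

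Among the glutamate receptor genes at day 3, GRIN1, the obligatory NMDA subunit (chr9:137138390-137168762 in GRCh38), read 0.258, 0.09, 0.263 and 0.105 CPM in WT and 5.29, 2.71, 2.04 and 1.56 CPM in KO. The log2 difference was 3.96 (SE 0.58, adjusted p = 0.000349). Every KO library lay above every WT library. GRIN2D (chr19:48394875-48444931) read 23.9, 19.7, 21.2 and 17.9 CPM in WT, 37.1, 46.8, 59.2 and 21.7 in HET and 94.6, 72.8, 82.2 and 62.3 in KO. It was higher by 1.90 (SE 0.25, adjusted p = 0.000182) in KO and by 1.00 (SE 0.25, adjusted p = 0.0428) in HET. On the CPM scale the KO libraries did not overlap the others, whereas HET replicate 4 lay within the WT range. On the TPM scale HET replicates 2 and 3 (6.99 and 5.07) lay above KO replicate 4 (3.29). The HET call was lost in 7 of 8 analyses without 1 library, all but that without HET replicate 4. GRIK5, a kainate subunit that needs a partner to form a channel, was higher in KO by 1.92 (SE 0.21, adjusted p = 4.2e-05) and GRIK3 by 2.01 (SE 0.22, adjusted p = 4.5e-05). In HET, GRIK3 was higher by 0.92 (adjusted p = 0.033), a call kept only without HET replicate 1 or 4 among the analyses that left out 1 library. GRIA4 read 1.05, 0.9, 1.27 and 1.84 CPM in WT and 6.27, 4.73, 4.25 and 6.1 in KO, with HET at 1.06, 0.722, 1.03 and 1.82. Only the KO group stood apart from WT here, by 2.06 (SE 0.33, adjusted p = 0.000626). GRIA2 was higher in KO by 2.19 (adjusted p = 0.0155; 0.0502 without KO replicate 1), and GRM2, a presynaptic group II metabotropic receptor, by 1.69 (SE 0.25, adjusted p = 0.000418).

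GRIA3 took another course (chrX:123184153-123490915). At day 3 it read 11, 8.89, 7.87 and 8.57 CPM in WT, 21.1, 29.4, 30.5 and 16.2 in HET and 12.2, 10.3, 7.13 and 6.6 in KO. On the CPM scale the HET libraries were above all others, while KO overlapped WT. On the TPM scale HET replicate 4 (3.61) lay below KO replicate 2 (3.76). HET exceeded WT by 1.43 (SE 0.25, adjusted p = 0.00496) and KO was lower than HET by 1.45 (adjusted p = 0.00554). Both calls were lost in limma on log2(TPM + 1) and log2(TPM + 0.1), with an adjusted p of up to 0.785 and 0.538. At day 7 the order was the same on the CPM scale. HET read 23.9, 25.2, 36.2 and 19.8 CPM, against 13.4, 13.4, 12.8 and 9.58 in WT and 13.3, 11.6, 16.4 and 11 in KO. In edgeR HET exceeded WT by 1.09 (adjusted p = 0.00511). KO against HET was -0.999 (edgeR adjusted p = 0.0338), lost without HET replicate 2 or KO replicate 1, 2 or 4. The latter call was also lost with library size alone and in limma on log2(TPM + 1), log2(TPM + 0.1) and log2(FPKM + 1). On the TPM scale HET replicate 1 (1.81) lay within the WT range (1.06 to 2.31).

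Of the inhibitory receptor genes at day 3, GABBR1 (0.93, SE 0.16, adjusted p = 0.00128), GABBR2 (0.69, adjusted p = 0.0312) and GABRQ, the theta subunit (0.71, adjusted p = 0.027), were higher in KO, and GLRA2, the fetal glycine receptor alpha subunit, was higher by 1.87 (adjusted p = 0.0307) with overlapping groups. Among nicotinic genes, CHRNA4, which pairs with CHRNB2 in the main receptor of the brain, read 8.86, 8.68, 10.9 and 9.99 CPM in WT, 14.8, 20.8, 24.3 and 14.7 in HET and 68.9, 62.7, 46 and 25.5 in KO. It was higher in KO by 2.38 (SE 0.28, adjusted p = 7.2e-05), with no overlap among the 3 groups on the CPM scale. On the TPM scale HET replicate 2 (6.87) lay above KO replicates 3 and 4 (5.25 and 2.53). CHRNA2 was higher in KO by 3.67 (adjusted p = 0.000117) and CHRNB2 by 1.11 (adjusted p = 0.0362). CHRNA1 (chr2:174747592-174787935) read 9.3, 26.7, 22.8 and 18.6 CPM in WT, 67.9, 93.4, 98.9 and 56.5 in HET and 47.5, 72.2, 105 and 87.7 in KO. HET and KO overlapped each other and both lay above WT, by 2.05 (SE 0.32, adjusted p = 0.00256) and 2.00 (SE 0.32, adjusted p = 0.0007). CHRNG, which joins CHRNA1 in the fetal muscle receptor, was the only subunit lower in KO, by 1.35 (SE 0.37, adjusted p = 0.0194, and up to 0.0632 without KO replicate 1 or 3), and CHRND did not differ by the test (-0.17, adjusted p = 0.688).

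Transcript of the inducing factor and marker genes of other cell states moved with genotype at day 3. NEUROG2, the gene of NGN2, stood at 22300 ± 2670 CPM in WT, 16100 ± 1870 in HET and 8940 ± 1410 (SD, n = 4) in KO, and the 3 groups did not overlap. It was already lower in KO at day 0 (1.55 to 2.24 CPM, against 10.9 to 32.2 in WT and 4.8 to 12.1 in HET). These counts do not tell the resident gene from an introduced copy. The pan-neuronal sum was 1480 to 1830 CPM in WT, 2270 to 5240 in HET and 5830 to 9490 in KO, with 11 of 12 genes called higher in KO. Dividing-cell markers summed to 1610 to 3200, 1910 to 2900 and 644 to 1710 CPM, with 6 of 10 called lower in KO, and peripheral neuron markers summed to 117 to 155, 183 to 279 and 411 to 787 CPM, with 7 of 9 tested called higher. Pluripotent cell markers summed to 179 to 294, 228 to 431 and 291 to 430 CPM, with 2 of 6 tested called higher in KO. Of all genes tested at day 3, 12.6% were higher and 8.93% lower in KO. The part of NEUROG2 and of these lists in the receptor results was not tested. In bulk libraries, fewer cells of a type and less RNA per cell cannot be told apart. Muscle markers, of interest for CHRNA1 and CHRNG, summed to at most 10.1 CPM in every day 3 library. MYF5 was at 0 in all of them and MYOD1 at most at 0.504 CPM. MYOG, another muscle regulator, was at most at 0.933 CPM and CKM at most at 1.11 CPM. From day 0 to day 3 in WT, MYOG (0 to 0.53 CPM) and CKM (0.0506 to 0.595 CPM) were called higher, and TNNT1 and MYH3 lower.

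At day 7 most tested subunits differed between KO and WT. Of 58, 32 were higher and 7 lower (67.2%), against 32.6% of all 21714 genes (17% higher and 15.6% lower), with a median log2 difference of 1.00 against -0.04. HET was higher at 19 and lower at 4 (39.7%), against 14.4% of all genes (8.31% higher and 6.1% lower), with a median of 0.70 against 0.00. By family, KO was higher at 9 of 13 GABA-A genes, 4 of 5 kainate, 5 of 7 metabotropic, 3 of 5 glycine, 2 of 4 AMPA, 3 of 7 NMDA and both GABA-B genes. The nicotinic genes divided, with 3 higher and 4 lower of 13. Without HET replicate 1, 35 receptor genes were called in HET, and without HET replicate 3, 16. The KO count was 37 without WT replicate 1, and the KO calls of GRIK1, GRIA4, GABRA3, GRIN2D, GRM4, CHRNA1 and CHRNG held without each library in turn. In limma on log2(TPM + 1) the splits were 9 higher and 4 lower in KO and 1 higher and 2 lower in HET, a scale on which the median of all genes was 0.16 in KO and 0.42 in HET.

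**Figure D2:**
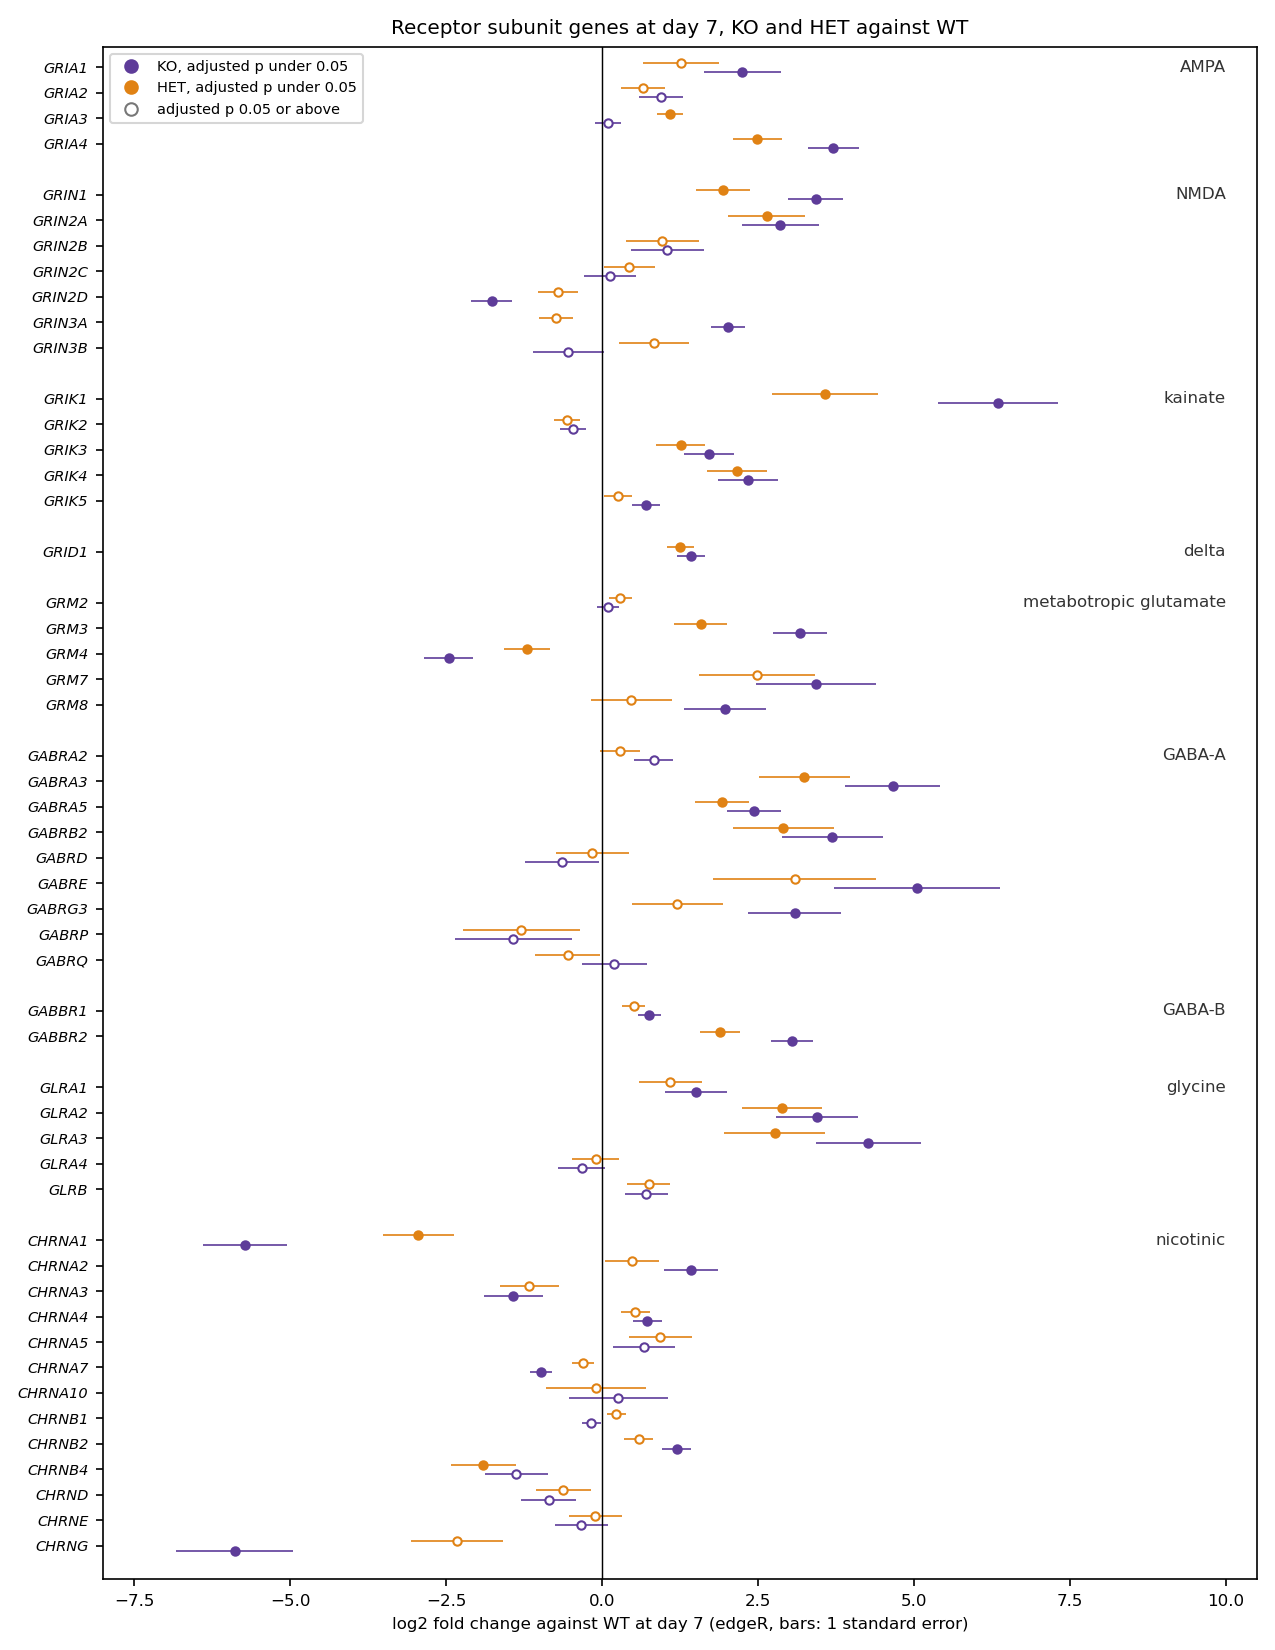
Log2 fold change against WT at day 7 for 51 receptor genes, grouped by family, in KO and HET (points, with bars of 1 standard error; filled points have an adjusted p under 0.05). Most points lie to the right of 0, with GRIK1 at 6.35 in KO, and CHRNG, CHRNA1, GRM4 and GRIN2D lie to the left in KO.

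The largest day 7 rise among subunits with a WT level above the floor of 3 counts was in GRIK1, a kainate receptor subunit (ENSG00000171189, chr21:29536933-29940033, minus strand). It was under 1 CPM in every library at days 0 and 3. At day 7 the WT libraries read 0.515, 3.63, 3.88 and 1.96 CPM, HET 7.38, 34, 74.4 and 4.22 and KO 277, 209, 258 and 74.1. On the CPM scale both edited groups lay above every WT library. HET, which spread widely, met KO at its edge (HET replicate 3 against KO replicate 4). On the TPM scale HET replicate 1 (0.55) lay below WT replicate 2 (0.56), and HET replicates 2 and 3 (13.5 and 22.99) lay above KO replicate 4 (9.74). KO exceeded WT by 6.35 on the log2 scale (SE 0.96, adjusted p = 0.000433) and HET by 3.58 (SE 0.85, adjusted p = 0.014), and the HET call was lost in limma on log2(TPM + 1) or log2(FPKM + 1) and when the share of small structural RNAs was a covariate. The difference between KO and HET, 2.77, missed the threshold (adjusted p = 0.135). GRIK1 overlaps BACH1 and GRIK1-AS1 on the other strand, and strand use in counting is not given in the sources used here. BACH1 stood at 98.8 ± 16.9, 119 ± 22.3 and 149 ± 23.3 CPM in WT, HET and KO at day 7 and GRIK1-AS1 at 0.232, 0.973 and 2.85 CPM. Of the other kainate genes, GRIK3 (1.71, adjusted p = 0.00612), GRIK4 (2.34, adjusted p = 0.00282) and GRIK5 (0.70, adjusted p = 0.0297) were higher in KO, and GRIK2 was not called (-0.47, adjusted p = 0.105).

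Among AMPA genes, GRIA4 (ENSG00000152578, chr11:105609994-105982092) read 1.94, 6.06, 6.82 and 7.25 CPM in WT, 13.9, 36.2, 44.4 and 30.3 in HET and 87.2, 70.1, 62.6 and 69.5 in KO. KO exceeded WT by 3.71 (SE 0.41, adjusted p = 6.8e-05) and HET by 2.49 (SE 0.39, adjusted p = 0.00172). On the CPM scale the groups were ordered WT, HET, KO without overlap. On the TPM scale HET (1.58, 19.91, 14.61 and 6.19) overlapped KO (13.19, 16.35, 15.85 and 10.08). GRIA4 was not called by edgeR in KO against HET. GRIA1 was higher in KO by 2.25 (adjusted p = 0.0146). GRIA2 read 40.4, 60.3, 44.3 and 31.2 CPM in WT and 99.2, 76.8, 105 and 59.1 in KO, a difference of 0.94 that missed the threshold (adjusted p = 0.0592).

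In the NMDA family GRIN1, GRIN2A and GRIN3A were higher in KO and GRIN2D was lower. GRIN1 read 1.06, 1.38, 0.948 and 0.462 CPM in WT, 6.4, 2.9, 3.94 and 1.57 in HET and 13.6, 7.9, 12.4 and 7.56 in KO. The groups did not overlap on this scale. On the TPM scale HET replicate 3 (1.68) lay above KO replicates 2, 3 and 4 (0.94, 1.52 and 1.07). GRIN1 was higher by 3.43 in KO (SE 0.45, adjusted p = 0.000177) and by 1.94 in HET (adjusted p = 0.00977). It was not called by edgeR in KO against HET. GRIN2D read 236, 211, 206 and 259 CPM in WT, 271, 92, 78.6 and 121 in HET and 61.8, 54.3, 77.4 and 73.7 in KO. The KO difference was -1.77 (SE 0.32, adjusted p = 0.00141); the call was lost in limma on log2(TPM + 1) (-1.10, adjusted p = 0.129) and on log2(TPM + 0.1) (-1.22, adjusted p = 0.104). On the CPM scale HET replicates 2, 3 and 4 lay between WT and KO and HET replicate 1 lay above WT. HET was not called by edgeR (-0.71, adjusted p = 0.155). GRIN3A, a subunit that lowers calcium entry (chr9:101569353-101738580), read 1.82, 2.75, 1.78 and 2.86 CPM in WT, 1.97, 1.28, 1.03 and 1.29 in HET and 11.9, 9.57, 9.43 and 6.61 in KO. It exceeded WT in KO by 2.02 (SE 0.28, adjusted p = 0.000251) and HET by 2.76 (SE 0.29, adjusted p = 0.000316). The gene PPP3R2 that lies within GRIN3A reached at most 7 counts. GRIN2A was higher in both genotypes (KO 2.86, adjusted p = 0.00396; HET 2.64, adjusted p = 0.0129), and GRIN2B was not called at day 7 (KO 1.05, adjusted p = 0.186).

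GRID1, a delta receptor gene, was higher (KO 1.43, adjusted p = 0.000466; HET 1.26, adjusted p = 0.00294). The metabotropic family held genes that moved in opposite directions. GRM4 read 174, 120, 153 and 141 CPM in WT, 129, 45.3, 24 and 59 in HET and 29.1, 20.7, 27.8 and 29.4 in KO. All KO libraries were below WT, by 2.46 (SE 0.39, adjusted p = 0.000581); the HET difference of -1.21 (adjusted p = 0.0463) came with overlapping groups and was lost in 7 of 8 analyses without 1 library, all but that without HET replicate 1. GRM3 (3.18, adjusted p = 0.00024), GRM7 (3.43, adjusted p = 0.0154) and GRM8 (1.97, adjusted p = 0.0369, overlapping groups) were higher in KO, and GRM2, higher at day 3, was close to WT (0.10, adjusted p = 0.704). GRM5 held 2, 2, 2 and 1 counts in WT, 2, 20, 12 and 3 in HET and 2, 36, 25 and 9 in KO; it passed the test in KO, and no fold is given because the WT libraries were at the floor of 3 counts.

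GABA-A genes accounted for 9 of the 32 rises in KO, and none of the 13 tested was lower. GABRA3, an alpha subunit of developing neurons, read 0.212, 1.9, 1.93 and 1.13 CPM in WT, 2.67, 18.4, 23.6 and 4.78 in HET and 31.7, 38.2, 47.7 and 14 in KO. It exceeded WT by 4.66 in KO (SE 0.77, adjusted p = 0.000748) and by 3.25 in HET (adjusted p = 0.0105). On the CPM scale every HET and KO library was above WT. On the TPM scale HET replicate 1 (0.15) lay within the WT range (0.02 to 0.23). The HET call was lost in limma on log2(TPM + 1), log2(TPM + 0.1) and log2(FPKM + 1), with an adjusted p of up to 0.133. GABRB2 (3.70) and GABRG3 (3.09) were higher in KO, as was GABRE (5.05, adjusted p = 0.0116, overlapping groups). In WT, GABRB2 held 0, 2, 4 and 6 counts and GABRE 10, 2, 3 and 1, so both folds rest on WT values near the floor. GABRR1 held 0, 0, 0 and 2 counts in WT, 3, 65, 78 and 29 in HET and 81, 95, 55 and 40 in KO.

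Both GABA-B genes were higher in KO. GABBR2 (chr9:98288082-98709197) read 2.88, 5.27, 9.1 and 7.94 CPM in WT, 17.7, 24.2, 34.5 and 17.1 in HET and 62.1, 51, 53.7 and 40.3 in KO. The KO difference was 3.04 (SE 0.34, adjusted p = 6.8e-05) and the HET difference 1.89 (adjusted p = 0.00292). The groups did not overlap on the CPM scale. On the TPM scale HET replicates 2 and 3 (7.25 and 7.42) lay above every KO library (3.52 to 6.18). GABBR2 was not called by edgeR in KO against HET. Set against day 3, when WT held 69.9 to 88.7 CPM and KO 98.2 to 187, the fall from day 3 to day 7 was smaller in KO than in WT by 2.32 on the log2 scale (SE 0.40, adjusted p = 7.91e-05). GABBR1 was higher by 0.76 (adjusted p = 0.00789). Of the glycine receptor genes, GLRA2 read 0.545, 6.65, 3.67 and 5.63 CPM in WT, 6.3, 41.1, 45.1 and 31.4 in HET and 29.2, 51.3, 54 and 46.3 in KO (KO 3.44, SE 0.66, adjusted p = 0.0018). The HET difference was 2.89 (adjusted p = 0.0102), and HET replicate 1 lay within the WT range. GLRA3 (4.27, adjusted p = 0.00222) and GLRA1 (1.51, adjusted p = 0.0354) were also higher in KO. The beta subunit GLRB, which anchors the receptor at synapses, was not called (0.71, adjusted p = 0.13).

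Among nicotinic genes at day 7, CHRNA1 and CHRNG of the muscle-type receptor were lower in KO, and CHRNA2, CHRNA4 and CHRNB2, found in brain receptors, were higher. CHRNA1 read 54.3, 24.2, 26.2 and 28.9 CPM in WT, 8.39, 4.64, 0.662 and 3.74 in HET and 1.13, 0.547, 0.384 and 0.441 in KO. It was lower by 5.72 in KO (SE 0.67, adjusted p = 8.9e-05) and by 2.94 in HET (SE 0.57, adjusted p = 0.00524), and no HET or KO library reached the WT range. CHRNG read 6.67, 7.22, 4.47 and 3.16 CPM in WT, 3.24, 0.489, 0.098 and 0.442 in HET and 0.0771, 0.149, 0.0274 and 0.0945 in KO. The KO difference was -5.89 (SE 0.94, adjusted p = 0.000608), and HET missed the threshold (-2.33, adjusted p = 0.0509). CHRND (-0.85, adjusted p = 0.158) and CHRNB1 (-0.17, adjusted p = 0.41), the other subunits of that receptor, were not called in KO. CHRNA3, a subunit of ganglionic receptors, was lower by 1.42 (adjusted p = 0.0347, overlapping groups) and CHRNA7 by 0.98 (adjusted p = 0.00129). CHRNA7 shares sequence with CHRFAM7A, which stood at 2.98 ± 0.651, 2.11 ± 0.581 and 2.19 ± 0.421 CPM in the 3 genotypes. CHRNB2 (1.20, adjusted p = 0.00214), CHRNA2 (1.43, adjusted p = 0.0225) and CHRNA4 (0.73, adjusted p = 0.0294) were higher. CHRNB4, the usual partner of CHRNA3, was called lower in HET (-1.90, adjusted p = 0.026; lost without WT replicate 2 or 4 or HET replicate 2 or 3) and missed the threshold in KO (-1.37, adjusted p = 0.0529). Muscle markers summed to 4.89 to 7.92 CPM in WT, 1.96 to 7.05 in HET and 1.04 to 1.82 in KO at day 7. Of 7 tested, 6 were called lower in KO, against 15.6% of all genes. MYF5 was at 0 in every library and MYOD1 at most at 0.273 CPM.

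Other marker lists also differed at day 7, as did NEUROG2, at 47.6 to 94 CPM in WT, 57.3 to 91.9 in HET and 19.5 to 30.7 in KO. The pan-neuronal sum was 7170 to 14400 CPM in WT, 15500 to 20900 in HET and 18000 to 24400 in KO, with 6 of 12 called higher in each and median log2 differences of 0.71 in KO and 0.61 in HET. Of all genes tested at day 7, 17% were higher and 15.6% lower in KO, and 8.31% and 6.1% in HET. Dividing-cell markers summed to 56.2 to 317 CPM in WT, 25 to 53.3 in HET and 27.9 to 33.1 in KO, mesenchyme markers summed to 39.5 to 59.7, 6.4 to 41.1 and 4.99 to 6.93 CPM, and peripheral neuron markers to 268 to 539, 422 to 1230 and 497 to 903 CPM. The peripheral neuron list went both ways in KO, with 4 higher and 3 lower of 10 tested. Pluripotent cell markers summed to 51.1 to 64.9 CPM in WT, 79 to 160 in HET and 236 to 314 in KO, without overlap. Of 3 tested, LIN28A and PRDM14 were higher in KO (3.38 and 2.60) and in HET (2.09 and 3.25), and DPPA4 was lower in KO (-2.29), while POU5F1 was at 3 counts or fewer in every KO library. Glial markers summed to 118 to 335, 151 to 279 and 90.6 to 233 CPM, with 2 of 7 tested higher and 1 lower in KO. The part of these in the receptor results was not tested.

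The genotype difference changed between days for many subunits. Tested over all 36 libraries, the change from day 3 to day 7 differed between KO and WT for 24 of 61 receptor genes (39.3%; 12 more positive in KO and 12 more negative), against 18.5% of all 24764 genes (7.6% and 10.9%). Calls at both days were not counted over all genes, so the next counts have no such share beside them and are a description. Of 49 genes tested at both days, 11 were higher in KO on both, 1 (CHRNG) was lower on both, and 2 were higher at day 3 and lower at day 7. These 2 were CHRNA1, whose change from day 3 to day 7 was more negative in KO by 7.73 (SE 0.69, adjusted p = 2.11e-09), and GRIN2D, by 3.69 (SE 0.45, adjusted p = 3.92e-07). In WT, GRIN2D rose 3.46 on the log2 scale in this interval, and the KO means went from 78 to 66.8 CPM. GRIK1 (6.01, SE 1.03, adjusted p = 7.11e-05) and GABRA3 (4.10, adjusted p = 0.000147) had more positive changes in KO. From day 0 to day 3 the change differed for 10 of 61 genes (9 more positive, 1 more negative), against 8.55% of all genes (5.37% and 3.19%), among them CHRNA1 (3.76, adjusted p = 0.00379), CHRNA4 (2.16), GRIN2D (2.13, adjusted p = 0.00285) and GRIK5 (2.04, adjusted p = 1.76e-05). In limma on log2(TPM + 1), 8 were called from day 3 to day 7 (4 in each direction, CHRNA1 and GRIN2D among them) and 3 from day 0 to day 3, 2 of them more positive.

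**Figure D3:**
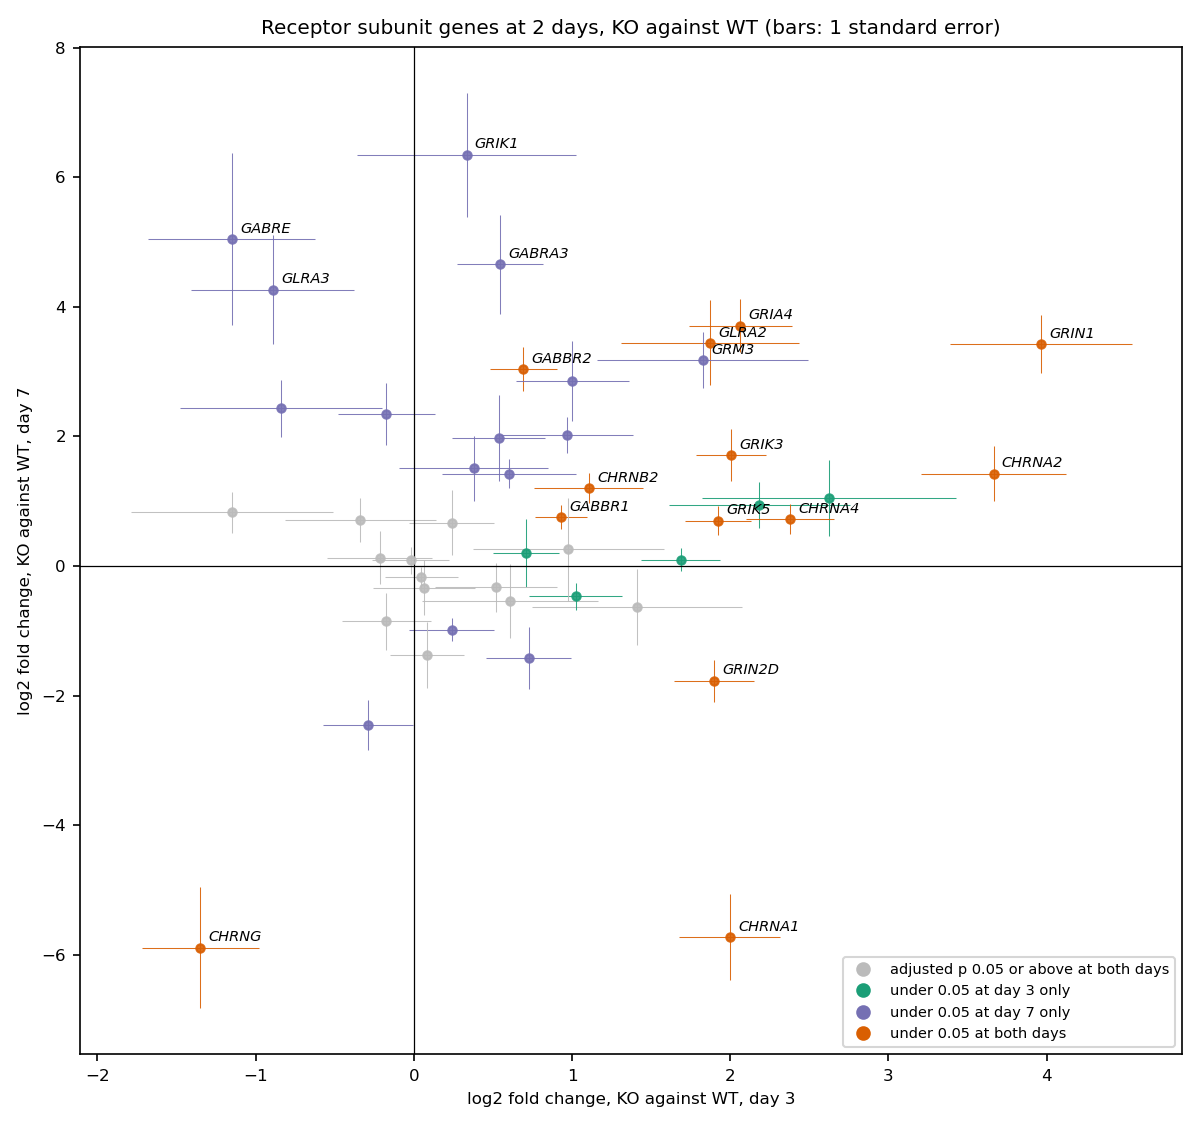
Log2 fold change of KO against WT at day 3 (horizontal axis) and day 7 (vertical axis) for 46 receptor genes tested at both days, with bars of 1 standard error. Most genes lie in the upper right; CHRNA1 and GRIN2D lie in the lower right, at 2.00 and 1.90 on the horizontal axis and -5.72 and -1.77 on the vertical axis.

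In HET the change from day 3 to day 7 differed from WT for 14 of 61 genes (8 more positive and 6 more negative), against 4.74% of all genes (2.06% and 2.69%), among them CHRNA1 (-4.97, SE 0.63, adjusted p = 8.65e-06), GRIN2D (-1.69, SE 0.44, adjusted p = 0.0174) and GRIA4 (2.64, SE 0.50, adjusted p = 0.00133). This count was 9 without HET day 3 replicate 3 and 8 without HET day 7 replicate 3, and limma on TPM called 1, more negative. From day 0 to day 3, edgeR called 0 of 61 in HET (0.271% of all genes, 0.182% more positive and 0.0888% more negative), with 9 at an unadjusted p under 0.05; the counts by other tools were 1 in limma on log2(TPM + 1) and 2 in limma on log2(FPKM + 1).

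The direct comparison of KO with HET gave fewer calls. At day 0 edgeR called 0 of 50, against 0.856% of all genes (0.524% higher in KO), with 6 at an unadjusted p under 0.05 and 2 called by DESeq2; without HET replicate 4, 1 was called. At day 3 it called 7 of 50 (14%; 6 higher in KO), against 4.35% of all genes (2.77% higher and 1.58% lower): GRIN1 (2.43), CHRNA2 (2.58), GRIA4 (2.18), CHRNA4 (1.41), GRIK5 (1.39) and GRIK3 (1.09) were higher and GRIA3 was lower. Without HET replicate 1 the count was 4, and the calls of GRIN1, CHRNA4 and GRIK3 were among those lost; GRIN1 was also lost without KO replicate 1. At day 7 it called 3 of 58 (5.17%), against 1.4% of all genes (0.668% higher and 0.737% lower): GRIN3A was higher, and GRIA3 and CHRNA1 (-2.78, adjusted p = 0.0409, overlapping groups, kept without HET replicate 3 only) were lower. That count was 1 without HET replicate 2, KO replicate 1 or KO replicate 2, and 9 without HET replicate 3; DESeq2 called 13, 7 of them higher.

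The makeup of each receptor family, as each gene's share of the family's summed TPM within a library, is a description that does not depend on scaling between libraries. At day 7 GRIA2 made up 58.8% ± 4.13 of AMPA transcript in WT, 38.7% ± 10.1 in HET and 36.6% ± 5.85 (SD, n = 4) in KO, and GRIA4 13.5% ± 7.94, 36.2% ± 11.4 and 53.3% ± 5.7. GRIK1 went from 2.27% ± 1.61 of kainate transcript in WT to 16.2% ± 14.5 in HET and 55.4% ± 12.5 in KO, while GRIK5 went from 43.4% to 39.2% and 22.3%. In the NMDA family GRIN2D made up 95.7% ± 1.25, 85.4% ± 5.46 and 65.8% ± 6.01 and GRIN1 0.965% ± 0.21, 4.45% ± 3.49 and 16.3% ± 4.53. The leading metabotropic transcript was GRM4 in WT (64.9% ± 2.9, against 32.3% ± 4.12 for GRM2) and GRM2 in KO (62.6% ± 3.97, against 19.4% ± 2.6 for GRM4). GABBR2 made up 3%, 7.44% and 13.4% of GABA-B transcript at day 7 in WT, HET and KO, and 59.7%, 62.5% and 60.3% at day 3. GLRA2 made up 43.3%, 76.9% and 82.7% of glycine receptor transcript, and CHRNA1 16.8%, 2.48% and 0.406% of nicotinic transcript.

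**Figure D4:**
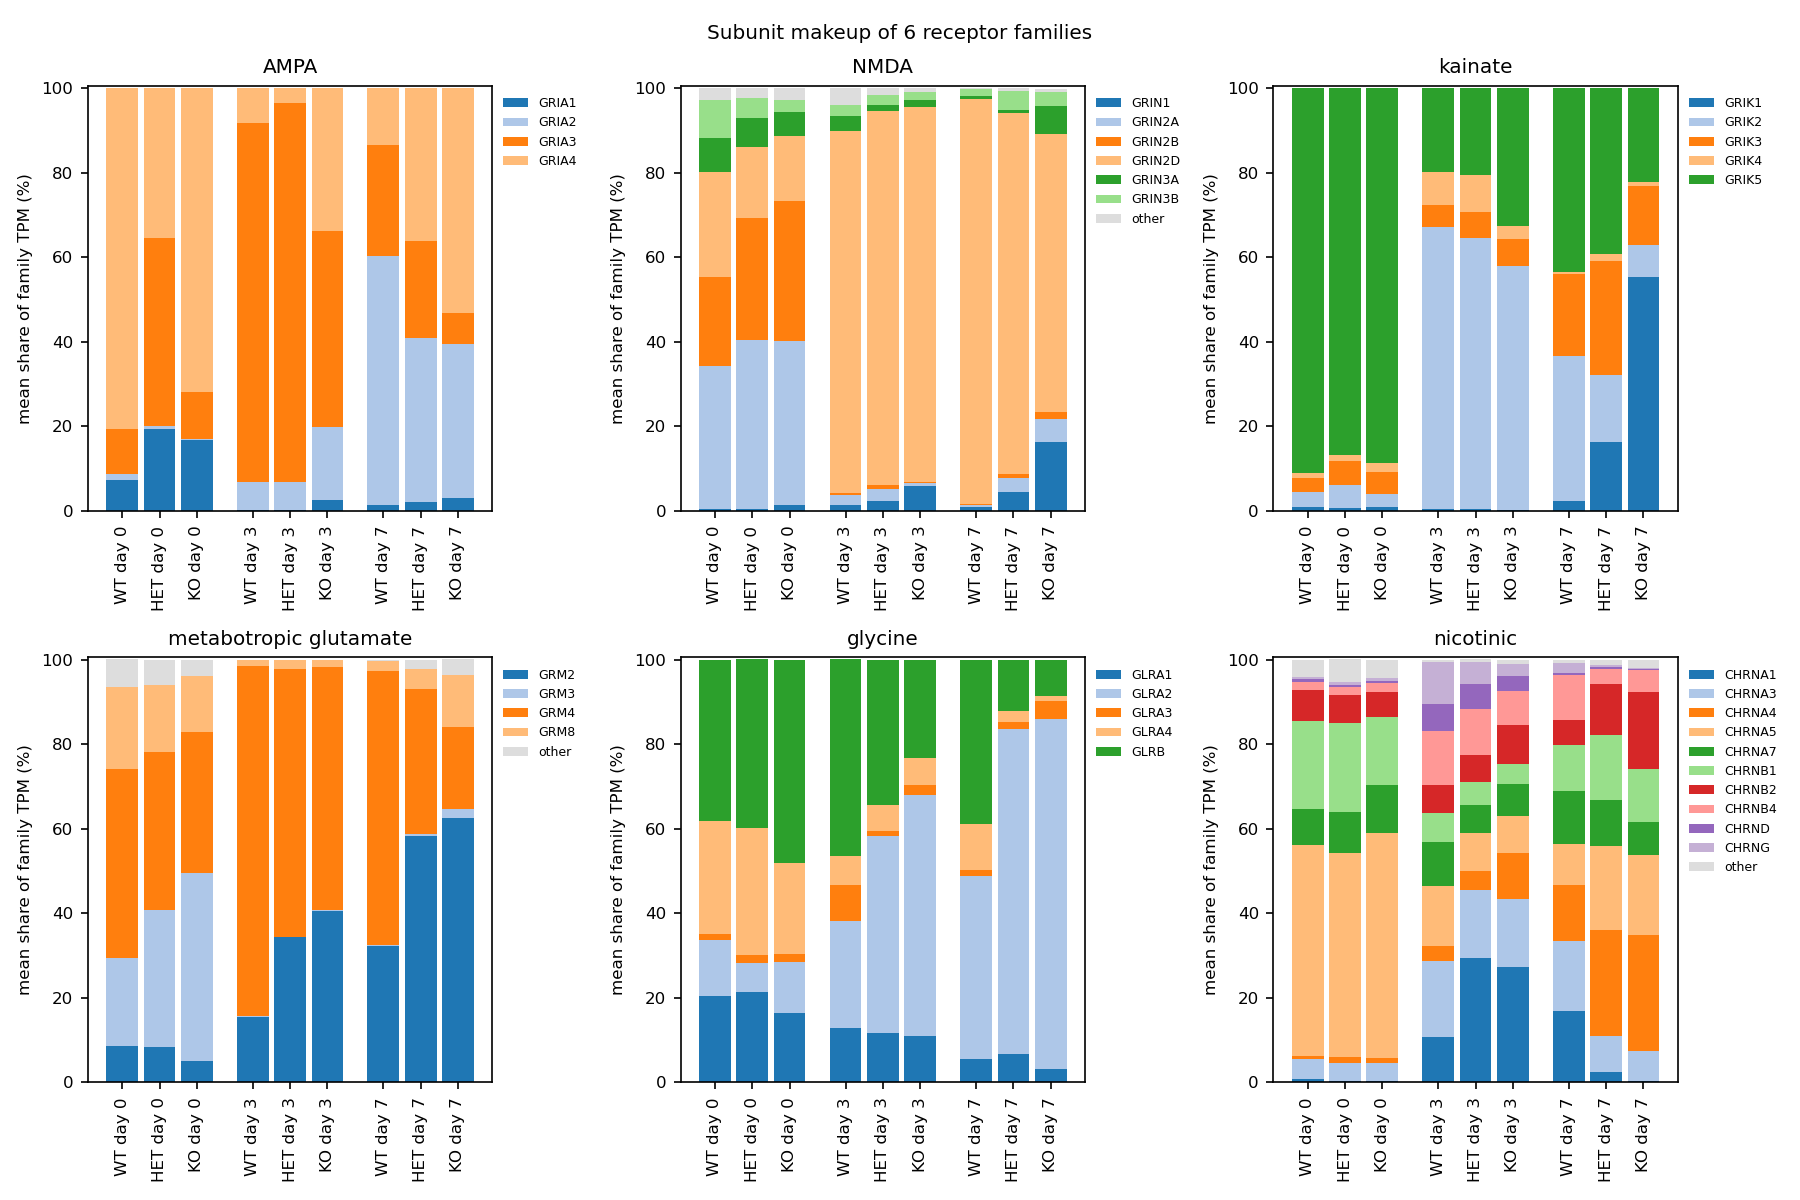
Stacked bars of each gene's mean share (percent) of its family's summed TPM in 6 receptor families, for the 9 genotype and day groups, 4 libraries each; genes that reach 5% are shown and the rest are pooled. At day 7, GRIA4 and GRIK1 take growing shares from WT to HET to KO, reaching 53.3% and 55.4%, and GRM4 and GRIN2D shrinking ones, down to 19.4% and 65.8%.

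Genes whose products assemble with or anchor these receptors were described beside them. Of the glutamate receptor auxiliary genes, 8 of 18 tested were higher and 1 lower in KO at day 7 (median log2 difference 0.70, against -0.04 for all genes), where 17% of all genes were higher and 15.6% lower, and 5 were higher in HET, where 8.31% of all genes were. CBLN2, a secreted linker of delta receptors, was higher by 4.39 and NETO1, a kainate and NMDA receptor partner, by 3.05, and CACNG5, an AMPA receptor partner, was lower by 2.25. Among 15 scaffold genes tested, 9 were higher and 1 lower (median 0.75), with SHANK1 at 2.53, SHANK2 at 2.66 and HOMER3 at -2.08. For GABA receptors, 4 of 8 accessory genes were higher (median 0.54), including KCTD16, which binds GABA-B receptors, at 5.31 and SHISA7, a GABA-A partner, at 2.55. The nicotinic accessory list, which is not limited to assembly factors, had 5 of 6 higher (median 1.39). Among these were LYPD1 at 5.08 and TMEM35A, an assembly factor of the alpha7 receptor, at 1.58, while CHRNA7 itself was lower. At day 3, 7 of 16 auxiliary genes were higher and 2 lower in KO, and 3 of 15 scaffold genes were higher and 1 lower. Also higher were 4 of 8 GABA receptor accessory genes and 1 of 5 nicotinic accessory genes. On that day 12.6% of all genes were higher and 8.93% lower. The scaffold and nicotinic accessory counts at day 3 lay near those shares. RAPSN, which clusters muscle nicotinic receptors, was lower by 2.34 at that day.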

How the data were processed

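RNA-seq libraries of 36 samples (4 per genotype and day) were compared as the labels group them. The authors deposited a table of expected counts (whole numbers throughout), and the deposited TPM and FPKM values came with it; the submitters' processing notes name cutadapt 4.8, FastQC 0.11.8, MultiQC 1.20, STAR 2.7.8a, RSEM 1.3.3 and GRCh38, without their order. The annotation and the use of strand are not given in the sources used here. Per the labels' protocols, total RNA was depleted of ribosomal RNA and sequenced in paired ends. TPM and FPKM were proportional within a library. Small structural RNAs took 2.84% to 27.5% of counts, which moves TPM of all other genes; 4 reporter sequences, at most 0.0171% of counts, were left out. Of the gene identifiers, 92.9% matched GENCODE 29, which gave positions.

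Counts were tested with edgeR 4.0.16 in R 4.3.3 (TMM, filterByExpr by group, quasi-likelihood F tests, Benjamini-Hochberg adjustment over all genes tested, threshold 0.05), on the 12 libraries of a day, the 12 WT libraries, or all 36 for changes over time. CPM were TMM-normalized over all 36 libraries. A standard error is the log2 difference divided by the square root of its F. A count of 3 or fewer was treated as a floor. Log2 differences are fitted values. The depth of 23.9 to 56.7 M counts limits precision for subunits near the floor, and floors cover counting error only.

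The receptor genes, the pathway and marker lists and the tests were chosen with earlier results of these data known. The genes named by rule were RAI1; in each comparison up to 8 rises and 5 falls among called receptor genes with at least 1 CPM in the higher group; the 2 highest genes of each family at WT day 7 by TPM; and GRIN1 as a common subunit. Some receptor genes are not reported here by name; they stay in the counts. Other genes were named after their values were seen, to complete a family or, as NEUROG2 and pluripotency genes, to describe the cells. Lists were counted, with no set test.

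Replicate numbers were checked for shared deviations from the group means across genes. All 4 correlations were over 0.1 in 3 comparisons, namely KO against WT on day 0 (0.29 to 0.695) and on day 3 (0.129 to 0.588) and HET against WT on day 3 (0.166 to 0.796); the labels name no batch behind the numbers.

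Alternatives were DESeq2 1.42.0 and its size factors, library size alone, no filter, limma 3.58.1 on log2(TPM + 1) and log2(TPM + 0.1), all 36 libraries in 1 fit, a covariate for the small structural RNA share, the replicate block, counts in place of TPM for family shares, and leaving out each library. Limma on log2(FPKM + 1) was chosen after seeing the data. Scripts were tested on simulated data of known answer. Promoter sequences are from RefSeq (GRCh38.p14). Figures were drawn with matplotlib 3.10.9.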

Additional observations from a re-analysis of the deposited data

Results flagged for a closer look

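In 3 of 80 groups of 4 libraries, 1 library lay far from the other 3 by Dixon's criterion; chance alone gives about 1 in 20, or 4 here. These were WT day 3 replicate 2 for CHRNG (18.5 CPM), WT day 7 replicate 4 for GABRR1 (0.0462 CPM) and WT day 7 replicate 1 for CHRNA1 (54.3 CPM).

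Tests of the difference between genotypes in the change over time set the following subunits apart, as log2 differences that passed edgeR's quasi-likelihood test with Benjamini-Hochberg adjustment. From day 0 to day 3, KO differed from WT at 10 of 61 receptor genes (16.4%), against 8.55% of all genes. Among them were GRIA4 (1.69), GABRB2 (-3.53), GRIN2D (2.13), GRIK5 (2.04), CHRNA1 (3.76) and CHRNA4 (2.16). From day 3 to day 7, KO differed at 24 of 61 (39.3%), against 18.5% of all genes. The change was more positive in KO for GRIA4 (1.63), GABRA3 (4.10), GABRB2 (5.30), GABRE (6.18), GLRA3 (5.14) and GRIK1 (6.01). It was more negative for GRIN2D (-3.69), GRIK5 (-1.24), GRM4 (-2.19), CHRNA1 (-7.73), CHRNA2 (-2.25), CHRNA4 (-1.68), CHRNA7 (-1.24) and CHRNG (-4.55). In WT at day 7, GABRB2 held 0, 2, 4 and 6 counts and GABRE 10, 2, 3 and 1. In KO at day 3, GABRB2 held 0, 4, 0 and 3 counts. The values of these genes here and in HET below thus rest on counts near the floor of 3.

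In HET the change from day 3 to day 7 differed from WT at 14 of 61 receptor genes (23%), against 4.74% of all genes. It was more positive for GRIA4 (2.64), GABRA3 (3.19), GABRB2 (4.01), GABRE (4.21) and GLRA3 (3.83), and more negative for GRIN2D (-1.69), CHRNA1 (-4.97) and CHRNB4 (-2.25). The KO and HET tests share the WT libraries.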

How the results depend on the processing

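The 76 rises and falls picked by the naming rule were followed through the alternatives in which their gene was tested. Other differences named in the text were not followed in this way. None of the 76 changed direction, and 36 kept their side of the threshold in all of these alternatives. Counts of receptor genes called moved under several alternatives. The share of all genes called under each alternative is not given beside these counts, here or above, so they are a description. In limma on log2(TPM + 1) they were 1 for each of KO against WT, HET against WT and KO against HET at day 0, 6, 0 and 0 at day 3 and 13, 3 and 0 at day 7, 15 for WT day 7 against day 3, and 3, 8, 1 and 1 for the KO changes from day 0 to 3 and 3 to 7 and the HET changes. In limma on log2(TPM + 0.1) they were 1, 1 and 1 at day 0, 8, 1 and 1 at day 3, 18, 11 and 0 at day 7 and 14 for WT day 7 against day 3. Limma on log2(FPKM + 1) gave 0, 1 and 1 at day 0, 3 for KO against HET at day 3, 12 for HET against WT and 1 for KO against HET at day 7, and 2 for the HET change from day 0 to 3. DESeq2 called 2 for KO against HET at day 0, 8 for HET against WT and 12 for KO against HET at day 3, and 13 for KO against HET at day 7. Library size alone gave 2 for HET against WT at day 3 and 1 for the HET change from day 0 to 3; no filter gave 5 for KO against HET at day 7 and 1 for that HET change. With a covariate for the small structural RNA share, KO against HET gave 12 at day 3 and 15 at day 7, and the HET change from day 0 to 3 gave 1. A fit of all 36 libraries gave 1, 1 and 1 at day 0 and 9 for KO against HET at day 7. The cause of these shifts was not tested. With counts in place of TPM, which drops the length, WT day 7 shares were 69.3% for GRIA2 and 54.6% for GRM4.

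With the replicate number as a block, the counts were 6 for HET against WT and 4 for KO against HET at day 0, 9 and 15 at day 3, and 6 for KO against HET at day 7. Of the comparisons whose numbers pair the libraries, KO against WT gave 6 at day 0 and 28 at day 3. The other counts stayed within 1.5 times.

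Without 1 library at a time, KO against WT gave 1 to 4 calls at day 0, 14 to 22 at day 3 and 32 to 39 at day 7. HET against WT gave 0 to 2, 2 to 8 and 16 to 35, and KO against HET 0 to 1, 4 to 10 and 1 to 9. The WT intervals gave 38 to 41 and 28 to 33, the KO changes 7 to 12 and 23 to 26, and the HET changes 0 to 1 (1 without WT day 0 replicate 3 or HET day 3 replicate 4) and 8 to 19. WT day 7 family shares ranged from 57.6% to 60.7% for GRIA2, 95.1% to 96% for GRIN2D, 38.7% to 48% for GRIK5, 63.9% to 66.2% for GRM4, 96.8% to 97.2% for GABBR1, 38.7% to 51.7% for GLRA2 and 14.8% to 18.5% for CHRNA3.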
